A study of Mus musculus with 47 samples.

Results

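Elf5, Ehf, Cebpb, Cebpd, Sox9, Sox10, Runx1, Runx2 and Id2 encode transcriptional regulators of the mammary epithelium. They were taken by symbol from the deposited table, matching without regard to case (ELF5, EHF, CEBPB, CEBPD, SOX9, SOX10, RUNX1, RUNX2 and ID2), and all 9 were found among its 21980 gene symbols. The study sorted 3 epithelial fractions from the mammary glands of ovariectomized FVB mice and sequenced RNA from each. The fractions are labelled luminal mature (LM), luminal progenitor (LP) and mammary stem cell (MSC). Flow cytometry gave 47 libraries from 20 mice, in 12 groups of 3 or 4 mice (LM EP was the group of 3).

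Per the labels, the treatments lasted 14 days. The first group, EP+TPA, received estradiol with progesterone plus telapristone acetate, a steroidal antagonist of the progesterone receptor. The second, EP+RU486, received estradiol with progesterone plus mifepristone, an antagonist of the same receptor that also blocks the glucocorticoid receptor. The EP group received estradiol with progesterone, and the sham group received neither hormone as far as the labels say. Every group was ovariectomized and of the same strain. No group received estradiol alone or an antagonist alone, and doses and ages are not in the labels. Values are FPKM, a fragment level corrected for gene length and for the size of the library, that were rescaled within 3 sets of libraries adjusted together by the authors. Set 1 was the LM libraries, set 2 the LP libraries with 6 MSC libraries, and set 3 the other 10 MSC libraries. LM levels are therefore not set against LP or MSC levels, and a value listed at 0 is not read as absence.

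As background, progesterone acts first on luminal mature cells, which carry its receptor, and these cells signal to their neighbours through secreted factors such as RANKL and Wnt4. Luminal progenitors, which have little receptor, answer those signals and give rise to milk-producing alveolar cells. Elf5, an ETS factor, is the best known driver of that alveolar fate, and Ehf is its close relative. Cebpb and Cebpd are C/EBP factors, of which Cebpb is needed for normal ductal and alveolar development and Cebpd is induced by STAT3 during involution. Id2 is an inhibitor of basic helix-loop-helix factors that alveolar development requires. Sox9 and Sox10 are SOX factors of luminal progenitor and basal cells. Runx1 and Runx2 bind DNA with the subunit Cbfb. Runx1 is linked to the luminal mature lineage, and Runx2 loss or excess disturbs alveolar differentiation.

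Upstream sequence could be read for 5 of the 9 genes from RefSeq tables of build GRCm38.p6, whereas the deposited values were made on mm9. The windows held the 250 bases before each of 7 annotated starts. STAT5, which acts below the prolactin receptor, binds TTCNNNGAA, and the progesterone receptor binds the half-site TGTTCT. Neither motif, on either strand, was in any of the 7 windows, against 7.02% and 16.1% of 32851 promoter windows. ETS cores (AGGAAG), RUNX motifs (TGTGGT) and SOX motifs (ACAATG), the motifs of the families to which 6 of these genes belong, were in 2, 1 and 1 of the 7 windows, against 29.5%, 14% and 10.7% of all windows. No base belonged to more than 1 match, and the motifs were chosen with the genes' values known. A motif match is a description of the letters and not a bound site. The windows of Elf5 and of the distal start of Runx1 are shown because they belong to the alveolar driver and to a factor that fell in both luminal fractions, and because each holds 1 match. Capitals mark the SOX match in Elf5 (chr2:103411848-103412097, plus strand) and the ETS match in Runx1 (chr16:92826075-92826324, minus strand), both written 5′ to 3′:
Elf5: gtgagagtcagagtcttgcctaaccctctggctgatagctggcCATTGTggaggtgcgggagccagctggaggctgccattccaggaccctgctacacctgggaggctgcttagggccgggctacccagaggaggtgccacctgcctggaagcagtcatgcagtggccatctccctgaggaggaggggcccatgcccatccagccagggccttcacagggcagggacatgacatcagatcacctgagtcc
Runx1: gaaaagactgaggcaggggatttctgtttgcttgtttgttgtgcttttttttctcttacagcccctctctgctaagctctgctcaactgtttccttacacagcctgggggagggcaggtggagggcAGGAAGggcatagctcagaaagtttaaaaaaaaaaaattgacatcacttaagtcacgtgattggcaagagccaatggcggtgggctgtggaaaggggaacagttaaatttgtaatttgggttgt

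Elf5 and Ehf are also neighbours on chromosome 2 of GRCm38, 108.822 kb apart, with 0 protein-coding genes between them. The remaining members lie on chromosomes 2 (Cebpb), 16 (Cebpd, Runx1), 11 (Sox9), 15 (Sox10), 17 (Runx2) and 12 (Id2). In the annotation, Tmem189, Spidr and Supt3 overlap Cebpb, Cebpd and Runx2 on the opposite strand. Use of strand in counting is not given in the sources used here, so reads of such pairs may not have been separated.

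The labels were checked against lists of marker genes. The summed level of 12 luminal mature markers was 73.0 to 228 in LM EP+TPA, 46.6 to 95.9 in LM EP+RU486, 561 to 1602 in LM EP and 568 to 1355 in LM sham libraries. The LM libraries of antagonist-treated mice thus had low levels of the markers that define their label. Foxa1, Prlr and Pgr, which define hormone-sensing luminal cells, were listed at 0 in 3 of 4 EP+TPA libraries, and Foxa1 and Prlr in 4 of 4 EP+RU486 libraries. In LP the same markers summed to 120.0 to 139 in EP+TPA, 118 to 224 in EP+RU486, 208 to 1489 in EP and 299 to 547 in sham libraries. In bulk fractions, fewer cells of a type and less RNA per cell cannot be told apart here and in every result that follows. Against LP, MSC had 15 of 16 basal markers higher, although basal sums ran from 91.4 to 11525 over the 16 MSC libraries. The FPKM of a library summed to between 281351 and 349128 (LM), 297710 and 358375 (LP) or 217977 and 356258 (MSC), and read depth is unknown.

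**Figure D1:**
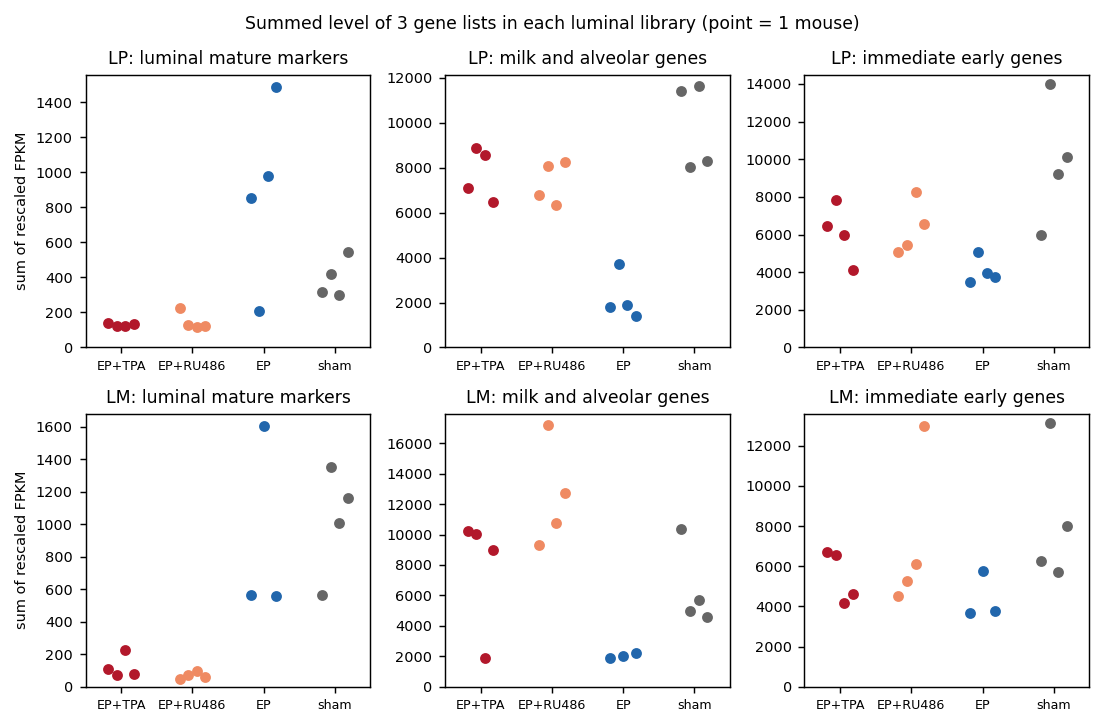
Summed rescaled FPKM of 12 luminal mature markers, 18 milk and alveolar genes and 19 immediate early genes in each LP (upper row) and LM (lower row) library, by treatment; each point is 1 mouse. Luminal mature markers were low in all antagonist-treated LM libraries (46.6 to 228) and, within LP, highest in 3 of 4 EP libraries (851 to 1489).

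The members spanned a wide range of levels. In LP, ordered by the median of 16 libraries, they were Cebpb (438 FPKM), Cebpd (117), Sox9 (76.5), Ehf (61.6), Id2 (59.4), Sox10 (35.4), Runx1 (26.7), Elf5 (23.9) and Runx2 (1.70). The SDs over LP libraries were 214 for Cebpb and 73.1 for Cebpd. They were 20.2 to 31.9 for Sox9, Ehf and Id2, 7.15 to 13.3 for Sox10, Runx1 and Elf5, and 0.905 for Runx2. Neighbouring medians between Sox9 and Elf5 differed by less than these SDs, except for Id2 and Sox10. In LM, Cebpb (343) and Cebpd (122) also had the highest medians and Elf5 (16.9) and Runx2 (1.48) the lowest. The authors' shift of each gene's values within a set touches every level, so this order is a description of the deposited scale.

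In luminal progenitors, nearly all of these genes were lower with EP than with sham. Of the 9 genes, 8 fell and 0 rose (limma, adjusted p under 0.05). Of 11402 genes tested, 32.4% were called, 16.1% lower and 16.2% higher. The median log2 difference was -1.23 for the members and 0.00 for all genes. Ehf was the exception. With the values as deposited, 6 of the 9 fell, while calls over all genes were 3945 higher and 949 lower, in place of 1852 and 1838, and the median of all genes stood at 0.25, in place of 0.00.

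Cebpb and Cebpd fell most. Cebpb had 103, 472, 145 and 74.6 FPKM in LP EP libraries, against 738, 627, 808 and 532 FPKM in LP sham libraries. All EP libraries were under all sham libraries, and only EP mouse 311 (472) came near them. The log2 difference was -2.13 (SE 0.42, adjusted p = 0.00143, limma). Cebpd had 36.0, 105, 55.0 and 30.4 FPKM in EP, against 208, 182, 317 and 157 FPKM in sham, a log2 difference of -2.03 (SE 0.34, adjusted p = 0.000443, limma). Its groups did not overlap either. Both genes kept their call without each single library. Cebpb and Cebpd are also induced by acute stress signals, so a list of 19 immediate early and dissociation stress genes was read beside them. Of these, 13 fell and 0 rose in LP EP against sham, among them Fosb by 1.86, Btg2 by 1.69 and Atf3 by 1.66 on the log2 scale (median -1.21 for the list). Their summed level was 3503 to 5080 in EP and 5967 to 13977 in sham libraries, and the part of this in the fall of the C/EBP genes was not tested. Ddit3, the stress-induced C/EBP relative, fell by 1.39 and Cebpg fell by 0.43, the 2 called among 4 tested relatives.

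Sox9 and Sox10 fell together. Sox9 had 35.3, 65.4, 31.7 and 15.8 FPKM in EP, against 73.4, 138, 90.2 and 92.9 FPKM in sham (log2 difference -1.52, SE 0.34, adjusted p = 0.00363, limma). Sox10 had 17.1, 29.1, 21.6 and 5.31 FPKM in EP, against 63.5, 32.0, 54.6 and 35.7 FPKM in sham (log2 difference -1.45, SE 0.35, adjusted p = 0.00567, limma). Neither gene's groups overlapped, although EP mouse 311 (29.1) and the lowest sham library (32.0) were close for Sox10. Among 7 other SOX genes tested, Sox4 rose by 0.95 and Sox13 fell by 0.54. Sox10 also marks Schwann cells. Of 8 Schwann markers, 2 were tested in LP and both fell, with a summed level over the list of 6.21 to 14.7 in EP and 16.9 to 26.4 in sham.

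Both Runx genes and Id2 fell as well. Runx2 had 0.423, 0.965, 0.564 and 0.166 FPKM in EP, against 1.43, 3.57, 2.07 and 1.72 FPKM in sham, with no overlap (log2 difference -1.05, SE 0.21, adjusted p = 0.00132, limma). Its level was low everywhere, and the added 1 FPKM compresses its fold. Runx1 had 13.3, 21.9, 11.7 and 11.1 FPKM in EP, against 19.6, 28.5, 28.1 and 25.2 FPKM in sham, and mouse 311 overlapped the sham range (log2 difference -0.80, SE 0.28, adjusted p = 0.0385, limma). Id2 had 39.3, 50.8, 38.9 and 22.5 FPKM in EP, against 56.7, 54.7, 56.5 and 65.1 FPKM in sham, without overlap (log2 difference -0.66, SE 0.22, adjusted p = 0.0315, limma). The calls of Runx1 and Id2 depended on single libraries. Runx1 lost its call (adjusted p 0.0717 to 0.0974) without sham mouse 305, 310 or 326 or without EP mouse 306, 322 or 327. Id2 lost it (0.0503 to 0.0981) without sham mouse 301, 310 or 326 or without EP mouse 306, 322 or 327, and its fold shrank to -0.44 without mouse 327. With values as deposited their adjusted p were 0.166 and 0.184, without the filter on low values 0.0611 and 0.0523, and Id2 was also lost when only EP and sham were fitted (0.052). Cbfb, the partner of both Runx proteins and the 1 gene of its list tested, was not called. Among 6 ID and E-protein genes, Id1 fell by 1.27 while Id3 rose by 1.25, Tcf3 by 0.84 and Tcf12 by 0.55.

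Elf5 and Ehf, although neighbours in the genome and relatives in the ETS family, did not share a call in LP; the difference between them was not tested. Elf5 had 12.7, 20.3, 12.3 and 3.48 FPKM in EP, against 21.1, 25.0, 32.6 and 26.1 FPKM in sham, without overlap (log2 difference -1.23, SE 0.34, adjusted p = 0.0118, limma). That call was lost when only EP and sham were fitted (adjusted p = 0.0588). Ehf had 70.1, 69.1, 44.7 and 12.9 FPKM in EP, against 32.1, 53.7, 42.6 and 43.2 FPKM in sham. Its groups overlapped widely, with a log2 difference of -0.03 and a 95% interval from -0.90 to 0.84. Of 18 other ETS genes tested, 4 fell and 0 rose, led by the epithelial factor Elf3 (-2.11), Etv1 (-1.33) and Ets1 (-0.80).

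Milk, progenitor and signalling genes were read from lists. Of 15 milk and alveolar genes tested, 9 fell and 0 rose with EP, led by Lalba (-3.94), Csn3 (-3.75) and Ltf (-3.54), an antimicrobial milk protein. Of 12 luminal progenitor markers, 6 fell, led by Lcn2 (-2.62), Hey1 (-2.53) and Cd14 (-2.40). Among 16 upstream signalling genes, 4 rose and 4 fell. RANKL (Tnfsf11) rose by 2.73 and Stat5a by 1.74, and the oncostatin M receptor gene Osmr, which lies above STAT3, fell by 2.17. Of 12 luminal mature markers, 5 rose and 1 fell. Of 9 fibroblast markers tested, Dcn rose (1.79) and 0 fell, and the list summed to 116 to 224 in EP and 30.5 to 165 in sham libraries.

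The 4 LP EP mice were not alike. Mouse 327 was lowest of the EP libraries for all 9 members, and mouse 311 was highest for all but Ehf, for which mouse 306 (70.1) was just above it (69.1). Averaged over the members, log2 levels relative to the mean of LP libraries were -1.79 in mouse 327, -0.84 in mouse 306, -0.77 in mouse 322 and -0.01 in mouse 311. The summed luminal mature markers were highest in mouse 327 and lowest in mouse 311, at 1489 in mouse 327, 851 in mouse 306, 981 in mouse 322 and 208 in mouse 311. Progenitor marker sums were 1338, 5531, 5734 and 10681 in the same mice. The part of the marker levels in the fall of the transcription factors was not tested. Without mouse 327, the call against sham was kept for Elf5, Cebpb, Cebpd, Sox9, Sox10 and Runx2.

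**Figure D2:**
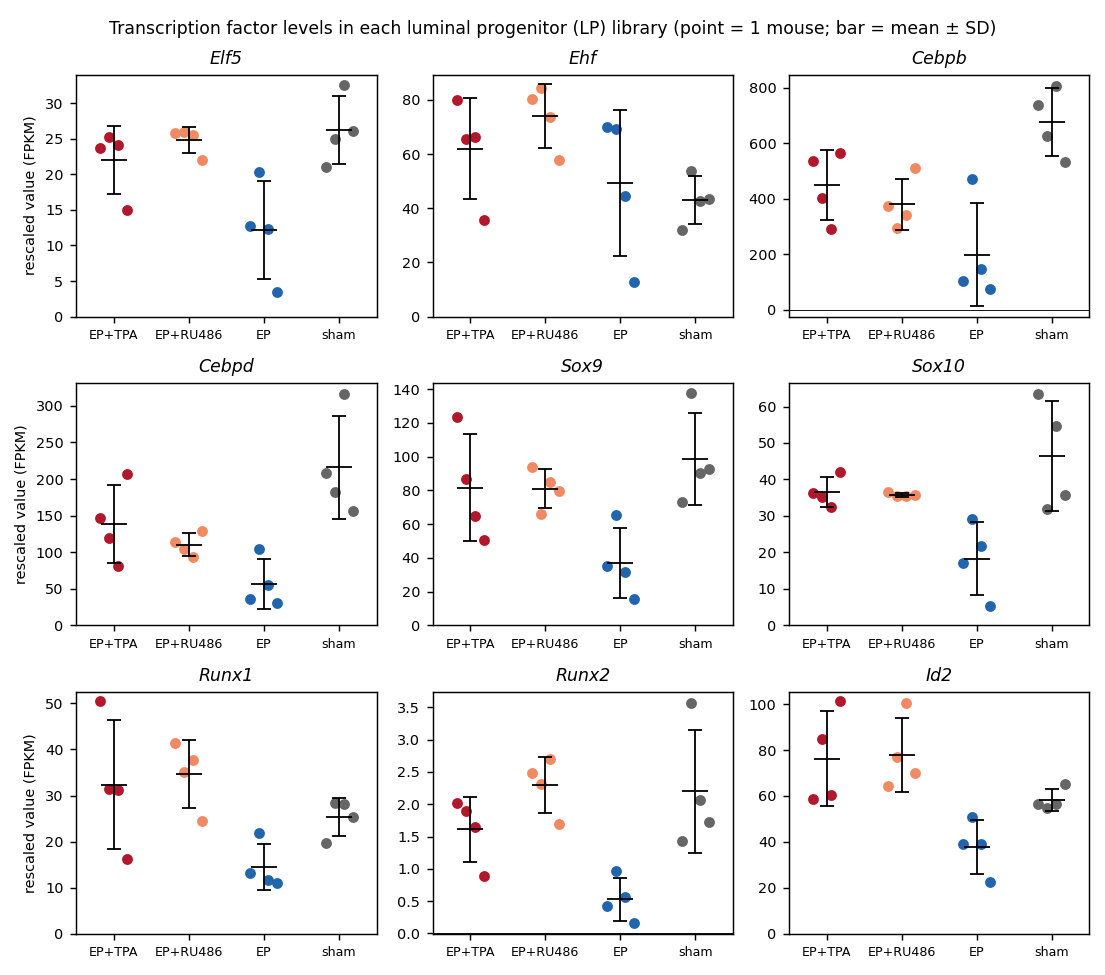
Rescaled FPKM of each gene in the 16 LP libraries by treatment; points are mice, bars are the mean with its SD (n = 4 per group). EP libraries lay under all sham libraries for 7 of 9 genes, the exceptions being Ehf and Runx1. The share of all 11402 tested genes with groups that did not overlap was not computed, so this count has no background.

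With either antagonist added to EP, most of these genes stood higher than with EP alone. In LP EP+TPA against EP, 7 of 9 members rose and 0 fell, against 18.4% of genes called, 7.79% higher and 10.6% lower. In EP+RU486 against EP, 8 rose and 0 fell, against 20.9% called, 9.02% higher and 11.8% lower. As deposited, all-gene calls were 540 higher and 2172 lower for EP+TPA, in place of 888 and 1206, and 723 and 1963 for EP+RU486, in place of 1029 and 1350. Both comparisons and that of EP with sham share the EP libraries, so they are not independent of each other.

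Id2 was the steadiest of them. It had 58.5, 84.7, 60.3 and 102 FPKM in EP+TPA, 64.2, 77.0, 101 and 70.0 FPKM in EP+RU486, and 39.3, 50.8, 38.9 and 22.5 FPKM in EP. No antagonist library overlapped EP, and the log2 differences were 1.01 for EP+TPA (SE 0.22, adjusted p = 0.00482, limma) and 1.06 for EP+RU486 (SE 0.22, adjusted p = 0.0034, limma). Both calls held without each single library. Sox10 was more even in the antagonist groups than in any other. It had 36.4, 35.2, 32.4 and 42.0 FPKM in EP+TPA and 36.5, 35.4, 35.4 and 35.8 FPKM in EP+RU486, all above the EP libraries (17.1, 29.1, 21.6 and 5.31). The log2 differences were 1.16 (adjusted p = 0.0328) and 1.14 (adjusted p = 0.0323, both limma). Each Sox10 call was lost, at adjusted p 0.0551 to 0.0696, without any 1 of the antagonist's own 4 libraries (312, 323, 328 and 336 for EP+TPA, 304, 308, 324 and 329 for EP+RU486) or without EP mouse 306.

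Runx1 and Runx2 rose with both antagonists. Runx1 had 50.5, 31.4, 31.3 and 16.3 FPKM in EP+TPA and 41.4, 35.2, 37.8 and 24.4 FPKM in EP+RU486, against 13.3, 21.9, 11.7 and 11.1 FPKM in EP. The EP+RU486 libraries were all above EP, and EP+TPA mouse 336 (16.3) was not. The log2 differences were 1.05 (adjusted p = 0.0157) for EP+TPA and 1.23 (adjusted p = 0.00586, both limma) for EP+RU486. Runx2 had 2.02, 1.90, 1.65 and 0.893 FPKM in EP+TPA and 2.48, 2.32, 2.70 and 1.69 FPKM in EP+RU486, against 0.423, 0.965, 0.564 and 0.166 FPKM in EP. Its log2 differences were 0.78 (adjusted p = 0.0158) and 1.12 (adjusted p = 0.00144, both limma). For EP+TPA, Runx1 lost its call without EP+TPA mouse 312 (adjusted p = 0.0519) or EP mouse 322 (0.0517), and Runx2 without EP+TPA mouse 312 (0.0527) or EP mouse 327 (0.0522).

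Cebpb, Cebpd and Sox9 rose as well. Cebpb had 535, 404, 290.1 and 565 FPKM in EP+TPA and 372, 296, 341 and 509.7 FPKM in EP+RU486, and EP mouse 311 (472) overlapped both. Its log2 differences were 1.51 (adjusted p = 0.0205) and 1.29 (adjusted p = 0.0403, both limma). Cebpd had 146, 119.6, 81.2 and 207 FPKM in EP+TPA and 114, 105, 93.4 and 129 FPKM in EP+RU486, again overlapping EP mouse 311 (105) (log2 differences 1.37 and 1.11, adjusted p = 0.0117 and 0.0316, limma). Sox9 had 123, 87.0, 65.1 and 50.7 FPKM in EP+TPA and 93.7, 66.2, 84.8 and 79.7 FPKM in EP+RU486, against 35.3, 65.4, 31.7 and 15.8 FPKM in EP (log2 differences 1.21 and 1.27, adjusted p = 0.0231 and 0.0165, limma). These Cebpb calls are unsteady. For EP+TPA the call was lost (adjusted p 0.0511 to 0.0716) without EP mouse 306, 322 or 327 or EP+TPA mouse 312 or 336. For EP+RU486 it was lost (0.05 to 0.125) without any 1 of its own 4 libraries (304, 308, 324, 329), EP mouse 306, 322 or 327, sham mouse 301 or 305, or EP+TPA mouse 323. Its fold with EP+RU486 was 0.95 without mouse 327, and that call was also lost without the filter on low values (adjusted p = 0.0591, limma). Cebpd lost the EP+RU486 call (0.0576 to 0.0997) without EP mouse 306, 322 or 327 or EP+RU486 mouse 304, 308 or 329. Sox9 lost the EP+TPA call (0.057 to 0.0774) without EP mouse 322 or 327 or EP+TPA mouse 312 or 323. All these LP calls but those of Id2, of Runx2, and of Sox9 and Runx1 with EP+RU486 were lost when only the pair of groups compared was fitted.

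Elf5 was called with EP+RU486 and missed the threshold with EP+TPA. It had 23.7, 25.3, 24.0 and 14.9 FPKM in EP+TPA, 25.8, 25.9, 25.6 and 22.1 FPKM in EP+RU486, and 12.7, 20.3, 12.3 and 3.48 FPKM in EP. The log2 difference was 0.97 for EP+TPA (adjusted p = 0.0583) and 1.17 for EP+RU486 (adjusted p = 0.0231, both limma). Without EP+TPA mouse 336 (adjusted p = 0.0397) or EP mouse 311 (0.00708) the EP+TPA difference passed, as it did with library weights (0.00349) and at a pseudocount of 5 (0.0493), and the EP+RU486 call was lost without mouse 304 (0.0508), 308 (0.0548) or 324 (0.0519). Ehf had 80.0, 65.5, 66.4 and 35.8 FPKM in EP+TPA and 80.3, 84.3, 73.7 and 57.8 FPKM in EP+RU486, and neither log2 difference from EP (0.52 and 0.82) was called. Over the same comparisons 11 of 12 luminal mature markers fell with each antagonist, led by Areg (-4.49 with EP+TPA and -4.30 with EP+RU486), and 6 and 5 of 12 progenitor markers rose. The fibroblast markers summed to 22.6 to 96.1 in EP+TPA and 19.7 to 54.4 in EP+RU486, under all EP libraries (116 to 224). Of 9 tested, Dcn fell with each antagonist (-1.88 and -2.07) and Pdgfra rose with EP+RU486 (0.88), with list medians of -1.09 and -1.41. Of the immediate early list, 2 genes rose with EP+TPA and 4 with EP+RU486, out of 19. The part of these lists in the rise of the transcription factors was not tested.

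**Figure D3:**
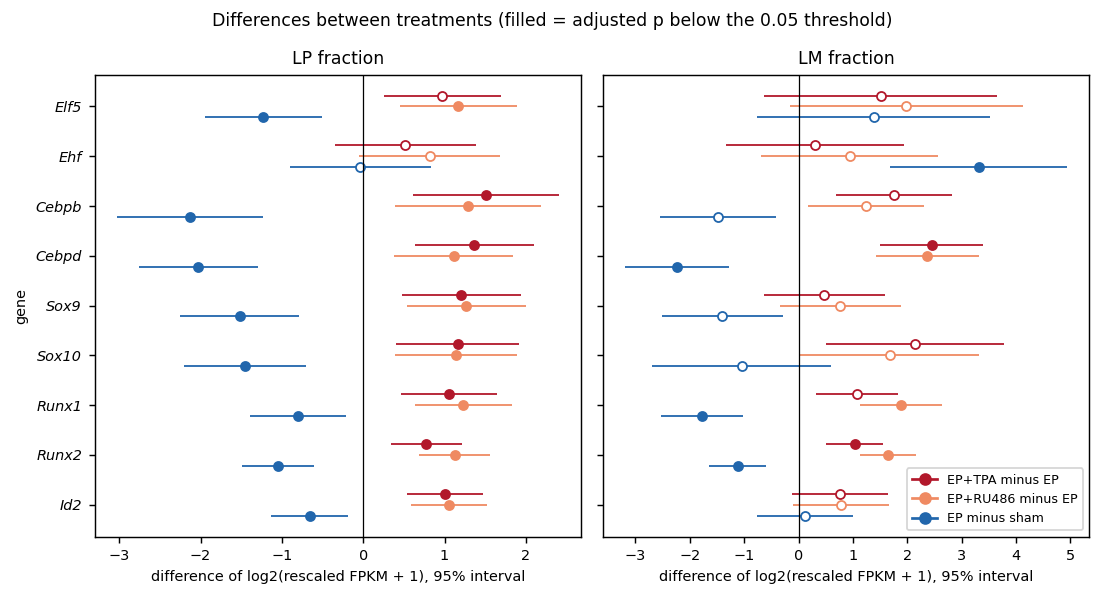
Differences of mean log2(rescaled FPKM + 1) with 95% intervals for EP+TPA minus EP, EP+RU486 minus EP and EP minus sham, in LP (left) and LM (right); filled points passed the adjusted threshold. In LP, 8 genes were called below 0 for EP minus sham and 7 or 8 above 0 for an antagonist minus EP, and in LM Ehf was called above 0 for EP minus sham.

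Antagonist-treated LP libraries were then set against sham. None of the 9 genes passed in EP+TPA against sham, where 5.10% of genes were called (1.80% higher, 3.30% lower), nor in EP+RU486 against sham, where 10.6% were (4.24% higher, 6.38% lower). As deposited these all-gene calls were 443 higher and 243 lower for EP+TPA, in place of 205 and 376, and 1315 and 429 for EP+RU486, in place of 483 and 727. A missed threshold does not show equal levels. Cebpb in EP+RU486 (296 to 509.7) lay under all sham libraries (532 to 808), with a log2 difference of -0.84 (95% interval -1.74 to 0.05, adjusted p = 0.224, limma). Cebpd in EP+RU486 (93.4 to 129) lay under all sham libraries (157 to 317), at -0.92 (95% interval -1.65 to -0.19, adjusted p = 0.102, limma). Ehf in EP+RU486 (57.8 to 84.3) lay above all sham libraries (32.1 to 53.7), at 0.78 (95% interval -0.09 to 1.65, adjusted p = 0.246, limma). Each of these 3 was called when only EP+RU486 and sham were fitted (adjusted p = 0.0104, 0.00981 and 0.00835) and with library weights (0.0397, 0.0199 and 0.0244). Leaving out EP mouse 311 also brought Cebpb (0.0324) and Cebpd (0.035) past the threshold, and leaving out EP mouse 327 brought Ehf (0.0334), since those libraries share the estimate of the spread.

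The antagonists did not differ detectably from each other in LP. No member and no gene passed in EP+TPA against EP+RU486 (0.00% of 11402, with 199 at an unadjusted p under 0.05). The widest interval was that of Cebpb, 0.22 with bounds of -0.67 and 1.12, and the narrowest was that of Runx2, -0.35 with bounds of -0.79 and 0.09.

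In the LM fraction the genes did not share 1 direction. In LM EP against sham, Ehf rose while Cebpd, Runx1 and Runx2 fell, 1 higher and 3 lower of 9. Of 11874 genes tested, 19.5% were called, 10.3% higher and 9.17% lower. As deposited, all-gene calls were 1665 higher and 754 lower, in place of 1227 and 1089.

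Ehf had 80.3, 15.4 and 63.1 FPKM in LM EP, against 11.0, 10.5, 1.53 and 0.101 FPKM in LM sham. All EP libraries were above sham, though mouse 311 (15.4) was only just so. The log2 difference was 3.31 (SE 0.75, adjusted p = 0.01, limma), and it missed the threshold without EP mouse 306 (2.87, adjusted p = 0.0512) or 327 (3.04, adjusted p = 0.0571). Elf5 had 16.9, 0 and 18.6 FPKM in EP, against 6.27, 6.40, 0 and 0 FPKM in sham, and was not called (log2 difference 1.38, adjusted p = 0.358, limma). The 0 in EP was mouse 311. Without that library the difference was 2.79 (adjusted p = 0.0195) and Elf5 was called.

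Cebpd had 20.2, 49.1 and 16.4 FPKM in EP, against 174, 107, 147 and 85.4 FPKM in sham. Runx1 had 8.23, 16.5 and 5.93 FPKM in EP, against 31.2, 30.2, 45.5 and 33.2 FPKM in sham (log2 difference -1.78, SE 0.35, adjusted p = 0.00376, limma). Runx2 had 0.131, 0.272 and 0 FPKM in EP, against 2.03, 1.24, 1.16 and 1.48 FPKM in sham (log2 difference -1.12, SE 0.24, adjusted p = 0.00614, limma). The groups of these 3 genes did not overlap, and the calls held without each single library. Cebpb had 120.2, 282 and 85.8 FPKM in EP, against 642, 392, 343 and 301 FPKM in sham. Its groups did not overlap, and its log2 difference of -1.48 just missed the threshold (adjusted p = 0.0506, limma). Without EP mouse 311 (adjusted p = 0.0148), EP+TPA mouse 332 (0.0188) or 336 (0.0333), or EP+RU486 mouse 313 (0.0497), it passed, as it did on deposited values (0.0392), with only EP and sham fitted (0.0397) and with library weights (0.00385). Library weights also brought Elf5 (0.00795) and Sox9 (0.0111) past the threshold. Sox9 (23.3 to 68.6 FPKM in EP, 67.2 to 191 FPKM in sham) passed without EP mouse 311 (-1.88, adjusted p = 0.025) or EP+TPA mouse 332 (-1.40, adjusted p = 0.0285) and not with them (-1.40, adjusted p = 0.0713). Sox10 (0.944 to 22.2 FPKM in EP, 9.33 to 58.1 FPKM in sham) and Id2 (30.5 to 67.1 FPKM in EP, 24.9 to 78.3 FPKM in sham) overlapped and were not called.

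LM EP mouse 311 stood apart on the markers as it did on the members. Its luminal mature markers summed to 1602, against 566 in mouse 306 and 561 in mouse 327, and its progenitor markers to 3161, against 5966 and 6115. Over the comparison with sham, 3 of 12 progenitor markers fell, led by Cd14 (-6.55), Aldh1a3 (-3.07) and Lurap1l (-2.30). Of the luminal mature markers, Tnfsf11 rose (4.21) while Cited1 (-4.83) and Esr1 (-2.32) fell, and 5 of 15 milk genes fell, led by Ltf (-11.15). Of the immediate early list, 2 of 19 fell, Ier3 and Junb, and its sums overlapped (3678 to 5769 in EP, 5739 to 13118 in sham). The part of these lists in the results was not tested.

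**Figure D4:**
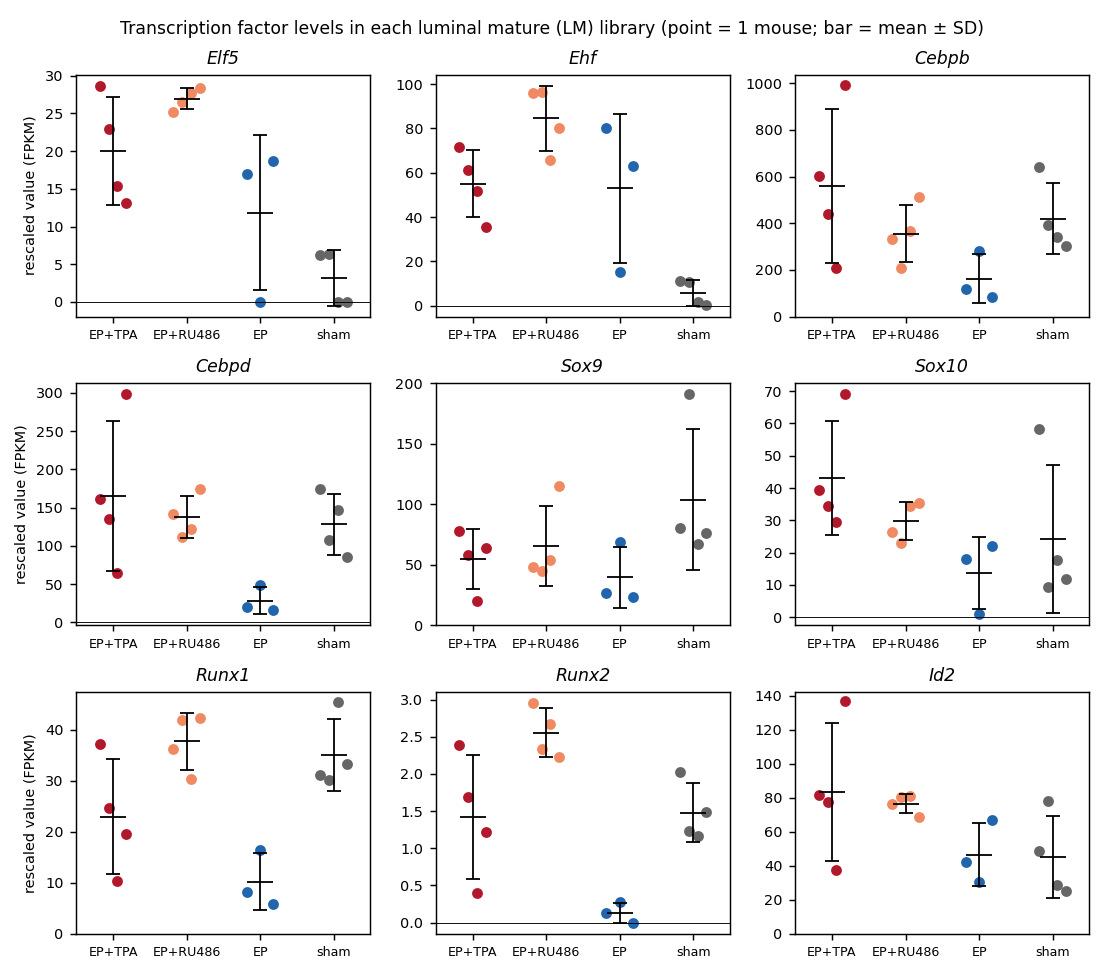
Rescaled FPKM of each gene in the 15 LM libraries by treatment; points are mice, bars are the mean with its SD (n = 3 for EP, 4 for the others). Runx1 and Cebpd in EP (5.93 to 16.5 and 16.4 to 49.1) lay under every sham library, while Ehf in sham (0.101 to 11.0) lay under every other library.

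Against EP, Cebpd and Runx2 rose in LM with each antagonist, and Runx1 rose with EP+RU486. In EP+TPA against EP, 2 members rose and 0 fell, against 4.52% of genes called, 1.32% higher and 3.20% lower. In EP+RU486 against EP, 3 rose and 0 fell, against 17.9% called, 8.32% higher and 9.56% lower. As deposited, calls over all genes were 167 higher and 621 lower for EP+TPA, in place of 157 and 380, and 731 and 1685 for EP+RU486, in place of 988 and 1135.

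Runx1 had 37.3, 24.8, 10.3 and 19.6 FPKM in LM EP+TPA and 36.3, 42.0, 30.4 and 42.3 FPKM in LM EP+RU486, against 8.23, 16.5 and 5.93 FPKM in LM EP. Every EP+RU486 library was above EP (log2 difference 1.89, SE 0.35, adjusted p = 0.00344, limma). EP+TPA mouse 332 (10.3) overlapped EP, and the EP+TPA difference of 1.08 was not called (adjusted p = 0.0888, limma), although it was without mouse 332 (1.40, adjusted p = 0.00516) or EP mouse 311 (1.45, adjusted p = 0.0438). Runx2 had 2.39, 1.69, 0.397 and 1.22 FPKM in EP+TPA and 2.96, 2.34, 2.67 and 2.23 FPKM in EP+RU486, all above EP (0.131, 0.272 and 0). Its log2 difference was 1.03 for EP+TPA (adjusted p = 0.0279, limma). That call was lost (0.0514 to 0.0903) without EP mouse 306, 311 or 327 or EP+TPA mouse 312, 328 or 336, at a pseudocount of 5 (0.0547) and with only EP+TPA and EP fitted (0.197). Cebpd had 162, 135, 64.9 and 299 FPKM in EP+TPA and 142, 111, 122 and 174 FPKM in EP+RU486, against 20.2, 49.1 and 16.4 FPKM in EP, and both calls held without each single library. With only EP+TPA and EP fitted, the Cebpd call was lost (log2 difference 2.45, adjusted p = 0.128). Sox10 (29.6 to 69.1 FPKM in EP+TPA, 23.1 to 35.2 FPKM in EP+RU486) lay above all EP libraries (0.944 to 22.2 FPKM). It was not called with either antagonist (log2 differences 2.14 and 1.68, adjusted p = 0.121 and 0.14, limma). Cebpb with EP+TPA had 600.4, 440.3, 208 and 990.0 FPKM, against 120.2, 282 and 85.8 FPKM in EP, and missed the threshold (log2 difference 1.75, adjusted p = 0.0595, limma). It passed without EP+TPA mouse 332 (2.15, adjusted p = 0.00416) or EP mouse 311 (2.24, adjusted p = 0.0401). With EP+RU486 it had 334, 210.4, 368 and 511 FPKM (1.24, adjusted p = 0.0971, limma), and passed without EP mouse 311 (1.73, adjusted p = 0.0413) or EP+TPA mouse 332 (adjusted p = 0.0434). With library weights, Cebpb passed with both antagonists (0.00127 for EP+TPA and 0.00368 for EP+RU486) and Runx1 with EP+TPA (0.000879). In EP+RU486, Elf5 (25.1 to 28.3 FPKM) and Id2 (68.7 to 81.0 FPKM) lay above EP (0 to 18.6 and 30.5 to 67.1 FPKM). Neither was called (log2 differences 1.98 and 0.77, adjusted p = 0.177 and 0.202, limma). Id2 passed with only those groups fitted (adjusted p = 0.0454). Elf5 and Id2 with EP+TPA, and Ehf and Sox9 with each antagonist, overlapped EP.

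Marker genes shifted in the same comparisons. With EP+TPA against EP, 8 of 12 luminal mature markers fell, 2 of 12 progenitor markers rose and 4 of 15 milk genes rose. With EP+RU486 against EP, 9 of 12 luminal mature markers fell, 7 of 12 progenitor markers rose and 1 fell, and 8 of 15 milk genes rose. The part of these lists in the rise of Cebpd, Runx1 and Runx2 was not tested.

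Elf5 and Ehf stood above sham in the antagonist-treated LM libraries. In EP+TPA against sham 2 members rose and 0 fell, against 16.1% of genes called, 6.87% higher and 9.27% lower. In EP+RU486 against sham it was again 2 and 0, against 21.7% called, 9.74% higher and 11.9% lower. Ehf had 71.4, 61.3, 51.6 and 35.7 FPKM in EP+TPA and 96.1, 96.4, 65.6 and 80.4 FPKM in EP+RU486, against at most 11.0 FPKM in sham. Its log2 differences were 3.62 (SE 0.70, adjusted p = 0.00387) and 4.26 (SE 0.70, adjusted p = 0.00106, both limma). Elf5 had 28.7, 22.9, 15.4 and 13.1 FPKM in EP+TPA and 25.1, 26.5, 27.7 and 28.3 FPKM in EP+RU486, and its highest sham library had 6.40 FPKM. Its log2 differences were 2.89 (adjusted p = 0.0486) and 3.36 (adjusted p = 0.0207, both limma), and their size depends on the 2 sham libraries listed at 0. Without sham mouse 310 or 326 the EP+RU486 difference was 2.89 in each case (adjusted p = 0.0655), no longer called. The EP+TPA call was lost (0.0622 to 0.14) without any 1 of the 4 EP+TPA (312, 328, 332, 336) or 4 EP+RU486 libraries (308, 313, 329, 333) or without sham mouse 310 or 326.

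These rises came with the low luminal mature markers given above. In the same comparisons 9 and 10 of 12 luminal mature markers fell, 2 of 12 progenitor markers (Lbp and Itga2) rose in each, and Trf fell with EP+RU486. Milk gene sums were 1865 to 10257 in EP+TPA, 9306 to 17162 in EP+RU486 and 4591 to 10392 in sham, and 2 of 15 milk genes rose with EP+TPA and 4 with EP+RU486. The part of these lists in the rise of Elf5 and Ehf was not tested. Id2 (37.4 to 137 FPKM in EP+TPA, 68.7 to 81.0 FPKM in EP+RU486, 24.9 to 78.3 FPKM in sham) was not called (log2 differences 0.87 and 0.89, adjusted p = 0.136 and 0.111, limma). Without sham mouse 305 both were, at 1.18 (adjusted p = 0.0478) and 1.20 (adjusted p = 0.0335), and without EP+TPA mouse 332 that of EP+TPA was (1.21, adjusted p = 0.0299). Library weights brought Id2 past the threshold with both antagonists (adjusted p = 0.00215 and 0.000818, limma), and Sox10 with EP+TPA (0.0434). Id2 with EP+RU486 also passed with only those groups fitted (0.0481). Runx2 with EP+RU486 (2.23 to 2.96 FPKM) lay above all sham libraries (1.16 to 2.03 FPKM) without a call (0.53, adjusted p = 0.108, limma). It passed without EP+TPA mouse 332 (0.0317), with only those groups fitted (0.0314) and with library weights (0.00623).

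No gene separated EP+TPA from EP+RU486 in LM by limma (0.00% of 11874, with 1587 at an unadjusted p under 0.05). Among the members, Runx1 (10.3 to 37.3 FPKM in EP+TPA, 30.4 to 42.3 FPKM in EP+RU486; log2 difference -0.81, 95% interval -1.51 to -0.12, adjusted p = 0.339) and Runx2 (0.397 to 2.39 and 2.23 to 2.96 FPKM in the same groups; -0.62, 95% interval -1.10 to -0.14, adjusted p = 0.334) had intervals that left out 0 before adjustment. Intervals of the other 7 included 0, the widest being that of Elf5 (-2.45 to 1.51).

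In the MSC fraction no treatment comparison called a member. All 6 comparisons called 0.00% of 12193 genes by limma, with 196 to 854 at an unadjusted p under 0.05. With library weights EP against sham called 1 member, Cebpd (-0.63, adjusted p = 0.032, limma). Over the settings that kept all libraries or whole sets, that comparison called between 0 and 1093 of all genes. The Cebpd call is therefore not read as particular to that gene. With libraries of sets 2 and 3 pooled, all 9 members' groups overlapped in each of the 6. The share of all genes with overlapping groups was not computed, so this count has no background. Every group mixed both sets, so overlap was nearly fixed in advance for genes whose floor differs between them. The MSC libraries lie in 2 sets, and Elf5 and Ehf rested on a different floor in each. Elf5 as deposited was 2.36 to 3.09 in the 6 set 2 libraries and 13.7 to 17.9 in the 10 set 3 libraries. Of these, 5 of 6 and 8 of 10 lay within 10% of the lowest value of their set. Ehf was 6.62 to 7.92 and 40.7 to 54.6 in the same libraries, with the same counts near the lowest value. Sizes of differences for these 2 genes in MSC cannot be read.

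The other members ranged widely within MSC groups. Cebpd had 128, 397, 108 and 115 FPKM in EP+TPA, 95.2, 81.0, 56.1 and 118 FPKM in EP, and 97.5 to 138 FPKM in sham. The log2 difference of EP+TPA from EP was 0.96 (95% interval 0.19 to 1.72, adjusted p = 0.6, limma), and mouse 323 alone gave 397. That library lay in set 2, and those of mice 312, 328 and 336 in set 3. Its value was 200 as deposited, before rescaling by a factor of 0.504. Sox9 had 11.2, 39.6, 23.9 and 63.6 FPKM in EP, against 43.4, 52.5, 65.8 and 75.8 FPKM in sham (log2 difference -0.78, 95% interval -1.50 to -0.06, adjusted p = 0.928, limma). Cebpb was -0.66 (95% interval -1.56 to 0.24) and Runx1 -0.84 (95% interval -1.88 to 0.20) in EP against sham. The intervals of Cebpb and Runx1 hold both no difference and a fall as large as that of Runx1 in LP.

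MSC was then set against LP in the 6 mice of set 2, 1 EP+TPA (323), 2 EP+RU486 (308, 324), 2 EP (306, 322) and 1 sham (305). MSC had less Elf5, Ehf, Sox9 and Sox10, 4 lower and 0 higher of 9. Of 11918 genes tested, 39.2% were called, 16.5% lower and 22.7% higher. As deposited, all-gene calls were 1311 higher and 5644 lower, in place of 2705 and 1967. Ehf had 15.7, 7.80, 10.9, 8.38, 8.77 and 7.26 FPKM in MSC of mice 323, 308, 324, 306, 322 and 305, against 65.5, 84.3, 73.7, 70.1, 44.7 and 53.7 FPKM in LP of the same mice. MSC was lower in 6 of 6 mice (log2 difference -2.63, SE 0.17, adjusted p = 8.65e-06, limma). Elf5 was 2.59 to 6.14 FPKM in MSC and 12.3 to 25.9 FPKM in LP, also lower in 6 of 6 (-2.24, SE 0.18, adjusted p = 2.24e-05, limma). Both lay near their lowest value in MSC, so these differences are on a shifted scale. Sox9 was 11.2 to 43.4 FPKM in MSC and 31.7 to 138 FPKM in LP, lower in 6 of 6 (-1.20, SE 0.20, adjusted p = 0.00127, limma). Sox10 was lower in 5 of 6 mice (-0.72, SE 0.16, adjusted p = 0.00698, limma), the exception being mouse 323, with 38.3 FPKM in MSC and 35.2 FPKM in LP. As deposited, mouse 323 was lower in MSC too (19.3 against 37.4).

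After rescaling, Cebpb and Cebpd were higher in MSC in 5 of 6 mice each, the exception being sham mouse 305. Neither was called (0.72 and 0.48, adjusted p = 0.116 and 0.209, limma). As deposited, MSC was also lower in mouse 308 (Cebpb 313 against 339 in LP, Cebpd 115 against 120). The same held in mouse 324 (Cebpb 283 against 383, Cebpd 69.8 against 105). Deposited Cebpd was lower in mouse 322 too (42.9 against 66.5). Without mouse 305 Cebpb passed (0.97, adjusted p = 0.0494). After rescaling, Runx1 was lower in MSC in 3 of 6 mice, Runx2 in 4 and Id2 in 5, without a call. As deposited, Runx1 was lower in mouse 323 as well (23.5 against 33.3). Without mouse 322 Runx2 passed (-0.69, adjusted p = 0.0417). On deposited values 6 members were lower in place of 4, with Runx2 at -0.80 (adjusted p = 0.00893) and Id2 at -1.04 (adjusted p = 0.0104), against -0.51 and -0.43 after rescaling. Runx2 also passed with library weights (adjusted p = 0.0206). In the 2 EP mice Runx2 was higher in MSC (0.513 and 1.06 FPKM) than in LP (0.423 and 0.564 FPKM) after rescaling, and in the other 4 it was lower. As deposited, EP mouse 306 was lower in MSC (0.412) than in LP (0.538), so only mouse 322 was higher on both scales. With so few mice per treatment this was not tested. Relatives of the members were measured as well. Cbfb was higher in MSC (0.60). Of 19 ETS genes 8 were higher and 4 lower in MSC, with Elk3 (1.80), Ets1 (1.69) and Fli1 (1.65) higher. Of 7 SOX genes 4 were higher, led by Sox7 (2.13) and Sox18 (2.06), and of 6 ID and E-protein genes 4 were higher, led by Id4 (3.35). Fli1, Sox7 and Sox18 are endothelial factors, and 11 of 12 endothelial, 5 of 6 Schwann and 6 of 9 fibroblast markers tested were also higher in MSC. Their part in the result was not tested.

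**Figure D5:**
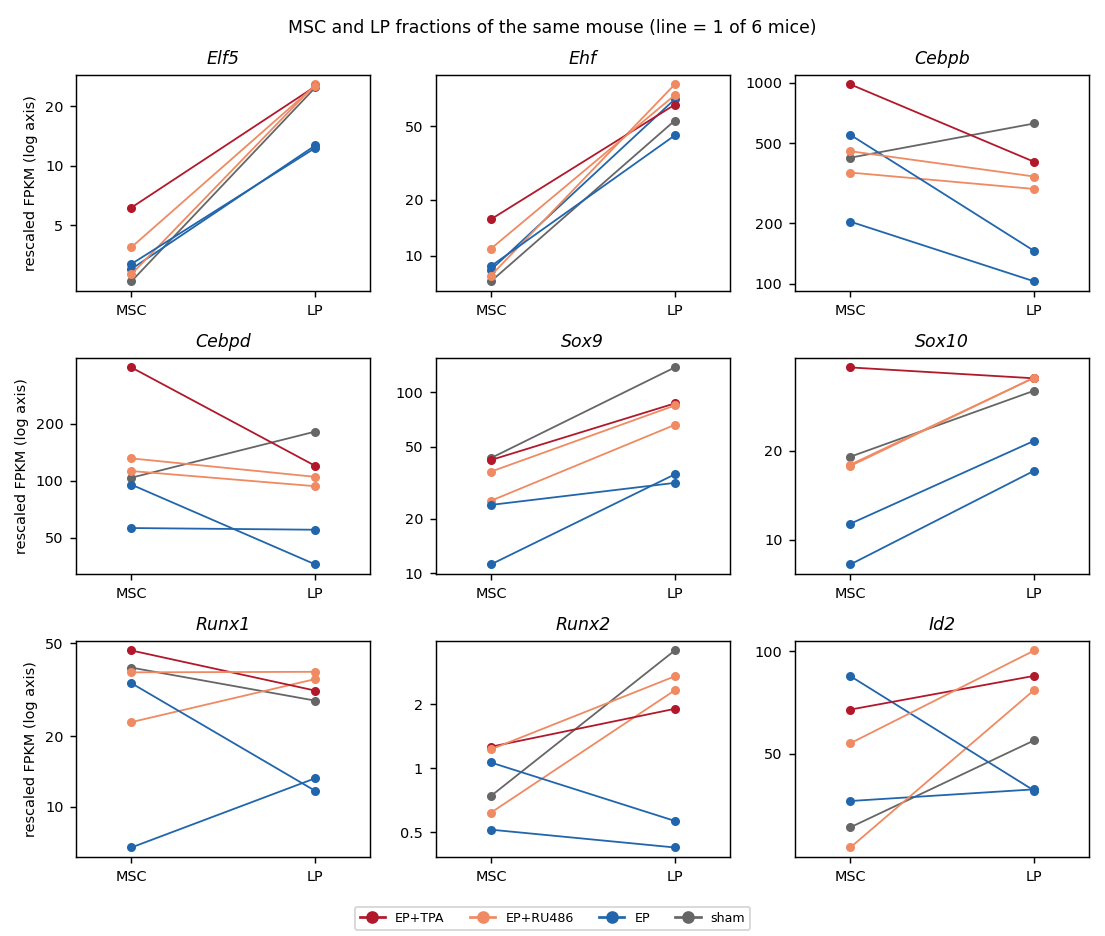
Rescaled FPKM (log axes) of each gene in the MSC and LP fractions of the same 6 mice, 1 line per mouse, coloured by treatment. Elf5, Ehf and Sox9 were lower in MSC in 6 of 6 mice, whereas Cebpb and Cebpd were higher in MSC in 5 of 6 after rescaling. As deposited, Cebpb and Cebpd were lower in MSC in mice 308 and 324 as well as 305.

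Finally, the genes with patterns most like the most variable member of each fraction were found by the root-mean-square difference of centred log2 values. In LM that member was Ehf, with group means spanning 4.26 on the log2 scale over 15 libraries. Its nearest genes were Rnase1 (0.55), Muc15 (0.68) and Rerg (0.75). Rerg, for example, averaged 19.1 FPKM in EP+TPA, 14.5 in EP+RU486, 13.8 in EP and 0.851 in sham. In LP it was Cebpb (2.13 over 16 libraries), nearest to Tuba4a (0.31), Ldlrad4 (0.32) and the progenitor marker Cd14 (0.33). Cd14 averaged 318 FPKM in EP+TPA, 274 in EP+RU486, 102 in EP and 484 in sham. In MSC it was Cebpd (0.92 over 16 libraries), near to Rabac1 (0.30) and H2-oa (0.31). These genes averaged higher in EP+TPA than in EP (Rabac1 380.2 and 180.0 FPKM), and no gene was called in that comparison. Cebpd in MSC EP+TPA was 397 FPKM in mouse 323, against 108 to 128 in the other mice, so its pattern leans on that library.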

How the data were processed

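The 9 genes, the gene lists and the tests were chosen with earlier results of these data known. Libraries were made with SMART-Seq v4 and Nextera XT from sorted cells, per the labels' protocols. The submitters' processing notes name STAR, Cufflinks, DESeq2 and build mm9, without versions, order or use of strand. The deposited values are described as read counts, but they are not whole numbers and have the scale of FPKM, shifted and rescaled by gene by the authors within 3 sets of libraries. These sets were inferred from identical values, with 1382 to 6488 shared by pairs within a set and 0 across sets. A count test, planned for whole counts, was therefore not used, depth is unknown, and no counting interval is given.

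Within a set, libraries were put on 1 scale by the median ratio of their genes (factors between 0.504 and 1.32), acting only above a gene's lowest value shared by libraries. Genes needed a value of at least 1 in 3 libraries and at least 3 libraries above the shared lowest value. limma 3.58.1 in R 4.3.3 (trend, robust) was fitted to log2(value + 1), with the 4 treatments of a fraction in 1 fit, a set term in MSC and treatment as covariate in MSC against LP. Adjustment was by Benjamini-Hochberg over all genes tested, with a threshold of 0.05. All log2 differences are on the log2(value + 1) scale, which understates changes of low genes. The procedure was tested on simulated data for EP against sham. A log2 difference of 1 was recovered for 54% of changed genes in LM, 80% in LP and 20% in MSC. A difference of 2 was recovered for 84%, 96% and 81%. The simulated spread in MSC included differences between sets, which the set term takes up in the reported fit. The MSC shares are therefore not the recovery of the reported fit. How much absent calls say in MSC, compared with LP, cannot be read from them.

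Mice were separate animals. Treatments share no mouse within a fraction. MSC and LP libraries of 1 mouse pair by the label's mouse number, and their deviations correlated at -0.01 to 0.35 over 11918 genes. The deviations were from each fraction's mean over the paired mice, without adjustment for treatment. A shared mouse and a shared treatment are therefore not separated in them. All 9 members are described, and from each list at most 3 genes per comparison are named, those past the threshold with the largest difference. Alternatives were the deposited values, other pseudocounts, no filter, fits of only the groups compared, library weights, a mouse block, each library left out and, chosen after seeing the data, rescaling above the lowest value whether shared or not. Of the gene symbols, 27 that resembled dates were left out, and some results for single genes are not reported here.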

Additional observations from a re-analysis of the deposited data

Results flagged for a closer look

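In groups of 4, a library was marked when its gap to the next value passed Dixon's 95% critical value as a share of the group's range, a limit that chance passes in about 1 of 20 groups. Of 99 groups of member values, 6 had such a library. Cebpd in MSC EP+TPA was 397 FPKM in mouse 323, against 108 to 128 in the other mice. Mouse 323 lay in set 2 and the other mice of that group in set 3. A difference between sets and one between mice cannot be told apart there. Sox9 in LM EP+RU486 was 115 FPKM in mouse 333, against 45.0 to 53.9, and Sox9 in LM sham was 191 FPKM in mouse 305, against 67.2 to 80.7. Elf5 in LP EP+TPA was 14.9 FPKM in mouse 336, against 23.7 to 25.3, and Elf5 in LP EP+RU486 was 22.1 FPKM in mouse 329, against 25.6 to 25.9. Id2 in MSC EP+RU486 was 26.5 FPKM in mouse 308, against 52.2 to 53.7. That group also mixed set 2 (mice 308 and 324) with set 3 (mice 313 and 329).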

How the results depend on the processing

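Of 3960 member differences recomputed under an alternative, 3807 stayed on the same side of the threshold, 101 lost the call, 52 gained one and 0 called ones changed sign. Direction was not compared for differences that were called in neither fit. The number of members called was 4 in LM EP against sham, and 7 with library weights. It was 2 in LM EP+TPA against EP, with 1 at a pseudocount of 5, 0 with only the 2 groups fitted and 4 with weights. For LM EP+TPA against sham it was 2, with 1 on deposited values, at a pseudocount of 0.1, without the filter and with rescaling above the lowest value, and 4 with weights. For LM EP+RU486 against sham it was 2, with 1 at a pseudocount of 0.1 and 4 both with only those groups and with weights. With only the 2 groups fitted, LP EP+TPA against EP had 2 in place of 7, LP EP+RU486 against EP 4 in place of 8, and LP EP+RU486 against sham 3 in place of 0, as with weights. MSC EP against sham had 1 with weights. With each library left out, members called ranged from 3 to 7 (LM EP against sham), 1 to 4 (LM EP+TPA against EP), 3 to 4 (LM EP+RU486 against EP), 1 to 3 (each LM antagonist against sham), 6 to 8 (LP EP against sham), 2 to 8 (LP EP+TPA against EP), 4 to 8 (LP EP+RU486 against EP), 0 to 2 (LP EP+RU486 against sham) and 4 to 5 (MSC against LP), and 0 in LP EP+TPA against sham, in EP+TPA against EP+RU486 of LM and LP, and in all MSC treatment comparisons. The causes were not tested.

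With mouse as a replicate block, MSC against LP called 4 members, the same number, and the paired fit changed no call of a member. Over all genes, the lowest and highest numbers of calls under the other settings were 1878 and 4297 in LM EP against sham (2316 as reported), 2 and 2510 in LM EP+TPA against EP (537), 2012 and 3463 in LM EP+RU486 against EP (2123), 1167 and 3622 in LM EP+TPA against sham (1917), 2266 and 5063 in LM EP+RU486 against sham (2571), 918 and 3163 in LP EP+TPA against EP (2094), 522 and 1457 in LP EP+TPA against sham (581), 1077 and 2644 in LP EP+RU486 against sham (1210), and 0 and 1093 in MSC EP against sham (0). With each library left out, the same counts ran from 881 to 2963, 183 to 2203, 1285 to 2813, 1092 to 2241 and 1673 to 3147 for the LM comparisons in that order. They ran from 2824 to 4105 in LP EP against sham (3690), 1358 to 2704 in LP EP+TPA against EP, 1670 to 2942 in LP EP+RU486 against EP (2379), 320 to 864 in LP EP+TPA against sham and 653 to 1620 in LP EP+RU486 against sham. Groups of 3 or 4 mice and unknown depth limit every comparison.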
